A study of Mus musculus with 6 samples.

Results

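Hepatic stellate cell and extracellular matrix genes were followed here in livers of mice without Atp7b, the copper-exporting ATPase of hepatocytes whose human counterpart is mutated in Wilson disease. The set holds 45 genes of 41388 in the deposited counts. They were chosen as a named list of collagen, matrix remodelling, TGF beta and stellate cell genes, each found in the table by its Ensembl identifier. Of the 45 genes, 43 were among the 12988 genes with enough counts for a test. Lox and Timp1 were not.

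Liver RNA was sequenced from 3 Atp7b-/- and 3 wild type libraries, all from 6-week-old mice of a mixed C57BL and 129S6/SvEv background on a diet with 16 ppm copper. The labels name no other treatment and no promoter or cell type that would limit the deletion. Whole liver was used, so all of its cell types add to each library. Within each genotype the labels give both sexes, which the sex-linked genes given below do not bear out for Atp7b-/-. The labels also give differing sample identifiers, but they do not state that every library is a separate animal. The p-values measure the spread between these libraries, part of which may be technical.

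Stellate cells lie between hepatocytes and the sinusoidal endothelium and store vitamin A in the healthy liver. In liver injury TGF beta and platelet-derived growth factor turn them into contractile myofibroblasts that express alpha smooth muscle actin and secrete fibrillar collagen, the main protein of scar. Crosslinking enzymes stiffen this matrix, metalloproteinases cut it, and the tissue inhibitors of metalloproteinases restrain the cutting.

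Before the members, several facts about the libraries matter. Reads were paired-end in Atp7b-/- replicate 3 and wild type replicate 1 and single-end in the remaining 4 libraries, and this layout was a term of the fit. Total counts per library ran from 6746192 to 25973968 in Atp7b-/- livers and from 5919389 to 23651080 in wild type livers. Atp7b was at 13.3 to 19.2 CPM (counts after scaling each library to the same effective depth) in Atp7b-/- livers and at 25.3 to 85.2 CPM in wild type livers. The labels name Atp7b-/- replicates 1 and 2 and wild type replicate 1 male and the other libraries female. In the single-end libraries Atp7b-/- was thus labelled male and wild type female, and in the paired-end pair the reverse. Within either layout, genotype and labelled sex cannot be told apart. Atp7b-/- replicate 3 was labelled female, but it had Xist at 0.482 CPM and the Y-linked gene Ddx3y at 126 CPM. Wild type replicate 3, also labelled female, had Xist at 17.4 CPM together with Ddx3y at 28.0 CPM. Atp7b-/- replicates 1 and 2 had Xist at 0.117 and 0.702 CPM and Ddx3y at 29.5 and 37.7 CPM. Wild type replicate 1 had Xist at 1.01 CPM and Ddx3y at 161 CPM, and wild type replicate 2 had 371 and 0.340 CPM. No Atp7b-/- library thus had high Xist, and genotype is partly confounded with sex as read from these genes. The part of sex in the genotype values was not tested. The 9 hepatocyte markers, at or above 1 count in every library, summed to 52723 to 70715 CPM in Atp7b-/- livers and to 78156 to 103372 CPM in wild type livers. Taken singly, each of the 9 had overlapping ranges, and 3 had a positive log2 fold change, Atp7b-/- over wild type. Genotype labels were kept as given, and labelled sex was not used as a term except in 1 alternative.

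None of the 43 tested genes was called between Atp7b-/- and wild type livers when edgeR's quasi-likelihood p-values were adjusted over all 12988 genes by the Benjamini-Hochberg method and a gene was called under 0.05. Over all genes, 323 were called, which is 2.49%. At an unadjusted p under 0.05 there was 1 of 43 members (2.33%), the collagen gene Col15a1, against 14.5% of all genes. DESeq2 and limma-voom also called 0 members, beside 770 and 351 of 12988 genes. At an unadjusted p under 0.05 they gave 3 and 6 members, beside 2023 and 2122 genes. The members' log2 fold changes, Atp7b-/- over wild type, ran from -2.73 to 0.79 with a median of -0.19, beside a median of -0.01 over all genes. Of the members, 31 of 43 were negative (72.1%, against 50.9% of all genes). The direction often differed between the layouts: 20 of the 42 members measured in both had the same sign in the paired-end and the single-end libraries (47.6%), against 58.4% of 12165 genes. For 4 members no Atp7b-/- library lay within the wild type range of CPM, against 8.51% of all genes tested. Col15a1 was above the wild type range, and Tagln, Des and Timp3 were below it. In whole liver, a lower value from fewer stellate cells and one from less RNA per cell cannot be told apart.

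**Figure D1:**
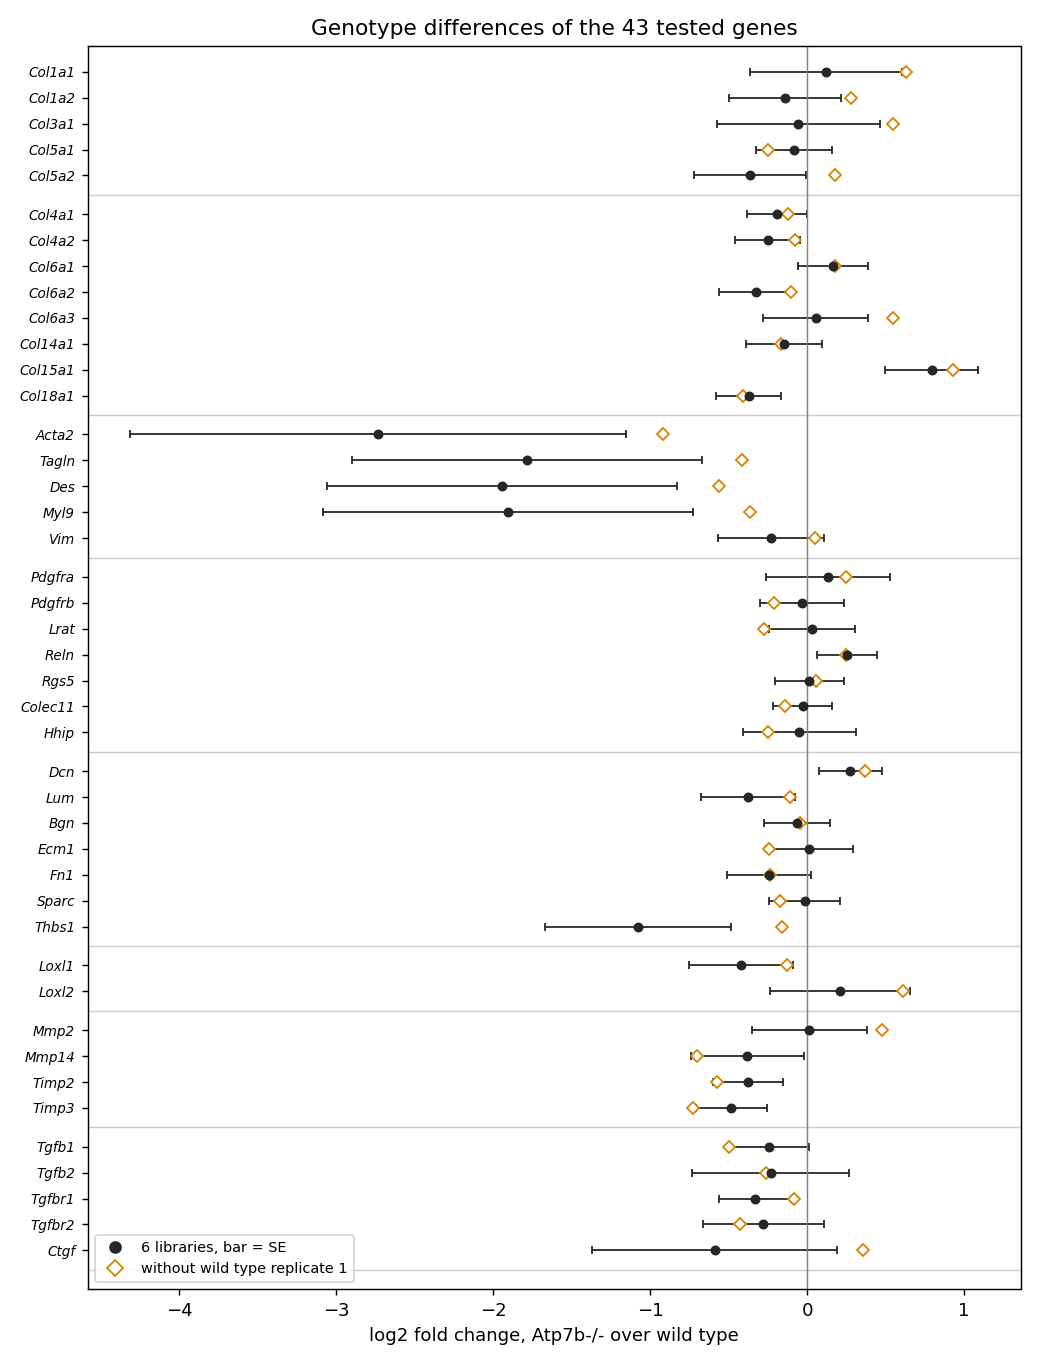
Log2 fold change of each tested member, Atp7b-/- over wild type, from the fit over all 6 libraries (black points, bars 1 standard error) and from the fit without wild type replicate 1 (open diamonds), grouped by role. Layout was a term of both fits, so the diamonds rest on the single-end libraries alone. No member passed the test, and the most negative values in the fit over 6 libraries are those of Acta2, Des, Myl9 and Tagln (-2.73 to -1.78), whose diamonds lie nearer to 0.

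The fibrillar collagens form the ropes of scar. Col1a1 and Col1a2 encode the chains of type I collagen, Col3a1 the chain of type III, and Col5a1 and Col5a2 chains of type V, which controls fibril width. None of the 5 was called, their median log2 fold change was -0.08, and their adjusted p-values were 0.706 or higher. Col3a1 had the highest level of the 5 per length, at a mean of 6.66 CPM per kb of exon. It was at 39.5, 103 and 44.4 CPM in Atp7b-/- replicates 1 to 3 and at 108, 49.1 and 48.4 CPM in the wild type replicates, with a log2 fold change of -0.06 (standard error, SE, 0.52, adjusted p = 0.979). The groups overlapped, and 1 library in each stood high, Atp7b-/- replicate 2 and wild type replicate 1. Col1a1 was at 20.1, 57.0 and 5.92 CPM in Atp7b-/- livers, against 11.3, 24.2 and 25.2 CPM in wild type livers (log2 fold change 0.12, SE 0.48, adjusted p = 0.943). For Col1a1, Atp7b-/- replicate 2 was the highest library, and the lowest in each genotype was the paired-end one. In the single-end libraries alone, 4 of the 5 fibrillar collagens had a positive log2 fold change, with a median of 0.28, and in the paired-end pair 1 of 5 did, with a median of -0.97. edgeR called 0 of 42 members between the single-end libraries, beside 126 of 12205 genes. At an unadjusted p under 0.05 there were 2 members and 1730 genes. The paired-end pair has 1 library per genotype and no test, and labelled sex differs with genotype in both layouts. Col1a2 was at 15.7 to 53.2 CPM in Atp7b-/- livers and 29.8 to 34.4 CPM in wild type livers, Col5a1 at 14.6 to 22.6 CPM in Atp7b-/- livers and 12.2 to 32.1 CPM in wild type livers, and Col5a2 at 4.31 to 6.44 CPM in Atp7b-/- livers and 3.89 to 15.3 CPM in wild type livers.

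Among the other 8 collagens, Col4a1 and Col4a2 form the network of basement membranes, the 3 Col6 genes encode beaded filaments, Col14a1 binds to fibrils, and Col15a1 and Col18a1 encode collagens of basement membrane zones. Their median log2 fold change was -0.17 and none was called. Col15a1 (chr4:47208161-47313167, GRCm38) was at 28.0, 19.9 and 17.9 CPM in Atp7b-/- livers and at 12.3, 16.8 and 7.97 CPM in wild type livers. All 3 Atp7b-/- libraries lay above the highest wild type library, by little at the nearest pair. Its log2 fold change was 0.79 (SE 0.29), with an unadjusted p of 0.0251 and an adjusted p of 0.257 in edgeR's quasi-likelihood test. The difference was positive within both layouts, 0.93 between the single-end libraries and 0.54 between the paired-end ones, on the log2 scale.

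Col18a1, whose C-terminal fragment is endostatin, is known to be made by hepatocytes as well as by stromal cells, and it was the most abundant collagen of the set per length, at a mean of 197 CPM per kb. It was at 1715, 1328 and 535 CPM in Atp7b-/- livers and at 655, 2056 and 1990 CPM in wild type livers (log2 fold change -0.37, SE 0.21, adjusted p = 0.466). The lowest library of each genotype was the paired-end one, and the ranges overlapped. Col6a2 was at 17.0, 22.3 and 7.92 CPM in Atp7b-/- livers, against 13.4, 20.4 and 21.7 CPM in wild type livers (-0.33, SE 0.23, adjusted p = 0.574). Its partner chain Col6a1 had a value of the other sign, 0.17, and an adjusted p of 0.802, and the third chain, Col6a3, was at 0.05 (adjusted p = 0.964). Col14a1 was at 56.5 to 68.0 CPM in Atp7b-/- livers and at 49.7 to 92.9 CPM in wild type livers.

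Col4a1 and Col4a2 are transcribed in opposite directions from start sites that lie close together, and 22 bases of their exons overlap. Col4a1 was at 37.8 to 47.8 CPM in Atp7b-/- livers and 44.3 to 58.3 CPM in wild type livers. Col4a2 was at 20.2 to 46.9 CPM in Atp7b-/- livers and 30.3 to 52.1 CPM in wild type livers. Levels of the pair were closer in the single-end libraries than in the paired-end ones. In Atp7b-/- replicate 3 Col4a1 was at 37.8 and Col4a2 at 20.2 CPM, and in wild type replicate 1 at 47.3 and 30.3 CPM. Log2 fold changes were -0.19 (adjusted p = 0.709) for Col4a1 and -0.25 (adjusted p = 0.643) for Col4a2. The stretch that the promoter windows of both genes share is shown because the starts of both genes lie within it. It lies at chr8:11312777-11312854 (GRCm38.p6, plus strand, from RefSeq), and its 78 bases hold no CArG box.
Col4a1 and Col4a2 shared stretch: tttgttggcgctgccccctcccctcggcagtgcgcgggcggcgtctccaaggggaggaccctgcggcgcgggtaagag

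The contractile and cytoskeletal members were Acta2 (alpha smooth muscle actin), Tagln (an actin-binding protein also called SM22), Des (the muscle intermediate filament desmin), Myl9 (a regulatory light chain of myosin) and Vim (the mesenchymal intermediate filament vimentin). All 5 had negative log2 fold changes over the 6 libraries, with a median of -1.91, and none was called. Between the single-end libraries alone the value of Vim was 0.05, and with neither a covariate nor wild type replicate 1 it was -0.19. The first 4 are smooth muscle genes as well as stellate cell genes, and their large fitted values rest on 1 library, wild type replicate 1. Acta2 (chr19:34241090-34255590) was at 3.03, 1.68 and 2.20 CPM in Atp7b-/- livers and at 146, 2.89 and 6.67 CPM in wild type livers (log2 fold change -2.73, SE 1.58, adjusted p = 0.538). The Atp7b-/- libraries and wild type replicates 2 and 3 were all low and overlapped, and wild type replicate 1 was 21.8 times the highest other library.

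Tagln (chr9:45929619-45936058) was at 7.75, 5.19 and 6.20 CPM in Atp7b-/- livers and at 147, 8.84 and 8.71 CPM in wild type livers (-1.78, SE 1.12, adjusted p = 0.564). Des (chr1:75360329-75368579) was at 5.77, 6.31 and 3.62 CPM in Atp7b-/- livers, against 97.5, 7.14 and 10.9 CPM in wild type livers (-1.94, SE 1.12, adjusted p = 0.526). Both genes were lower in every Atp7b-/- library than in any wild type library, and both were by far highest in wild type replicate 1. Myl9 (chr2:156775420-156781658) was at 3.85, 1.68 and 3.55 CPM in Atp7b-/- livers, against 81.8, 3.40 and 4.08 CPM in wild type livers (-1.91, SE 1.18, adjusted p = 0.556). Its ranges overlapped. Between the 4 single-end libraries the log2 fold changes were -0.91 for Acta2, -0.41 for Tagln, -0.56 for Des and -0.36 for Myl9, and none of them was called. Vim did not share the pattern of wild type replicate 1: it was at 17.2, 41.1 and 15.4 CPM in Atp7b-/- livers and at 26.3, 26.3 and 29.7 CPM in wild type livers.

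**Figure D2:**
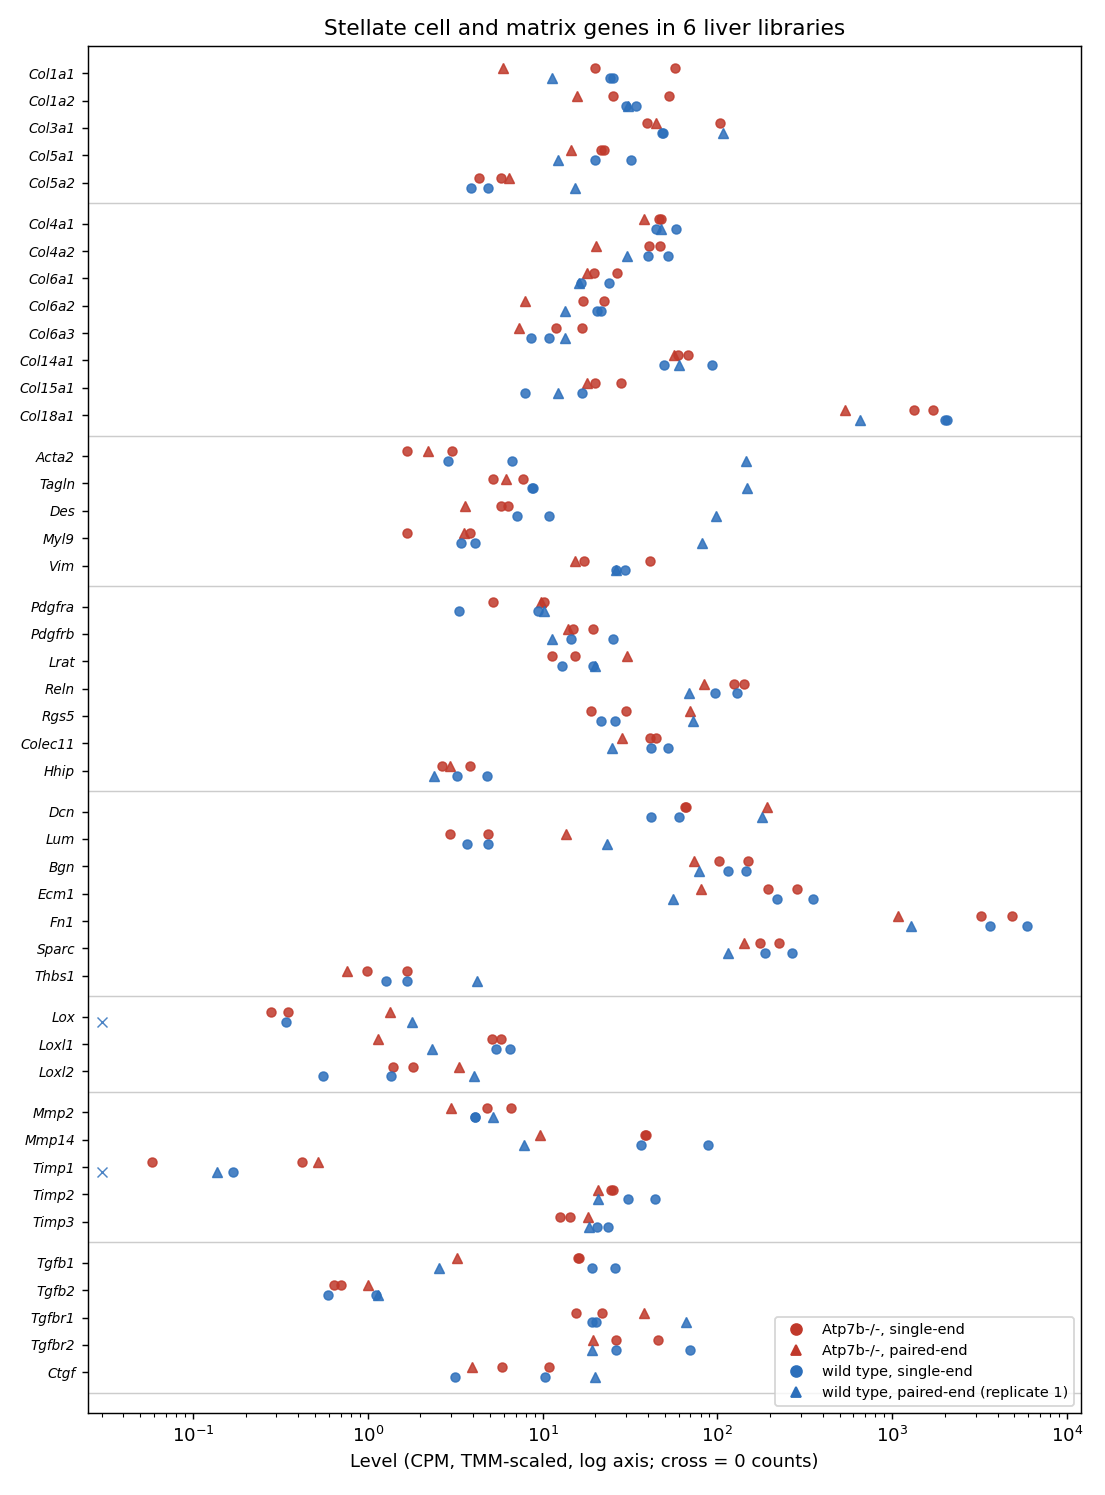
TMM-scaled CPM of each member in each of the 6 libraries on a log axis, with Atp7b-/- points above wild type points and the paired-end libraries marked. Wild type replicate 1 stands alone for Acta2, Tagln, Des and Myl9, and the genotypes overlap for most of the other members.

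In vertebrates, serum response factor and its partners of the myocardin family drive smooth muscle genes through CArG boxes in their promoters. Because Acta2, Des, Myl9 and Tagln were high together in 1 library, the promoter windows of the 3 with an entry are shown, from 250 bases before to 50 bases after the start (RefSeq, GRCm38.p6). Capitals mark CArG boxes with at most 1 base off the consensus in the core of 6. The windows are chr19:34255324-34255623 on the minus strand for Acta2, chr2:156775214-156775513 on the plus strand for Myl9 and chr1:75360042-75360341 on the plus strand for Des.
Acta2: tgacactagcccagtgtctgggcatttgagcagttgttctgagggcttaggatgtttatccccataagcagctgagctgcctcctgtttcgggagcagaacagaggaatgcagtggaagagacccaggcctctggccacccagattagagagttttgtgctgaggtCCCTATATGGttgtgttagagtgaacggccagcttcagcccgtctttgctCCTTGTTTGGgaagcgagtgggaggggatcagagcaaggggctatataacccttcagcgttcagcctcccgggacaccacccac
Myl9: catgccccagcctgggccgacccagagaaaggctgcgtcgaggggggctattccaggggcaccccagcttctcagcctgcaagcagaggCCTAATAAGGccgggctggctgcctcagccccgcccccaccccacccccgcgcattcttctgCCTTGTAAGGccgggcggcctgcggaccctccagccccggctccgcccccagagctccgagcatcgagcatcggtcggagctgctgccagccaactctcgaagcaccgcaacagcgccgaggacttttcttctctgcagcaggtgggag
Des: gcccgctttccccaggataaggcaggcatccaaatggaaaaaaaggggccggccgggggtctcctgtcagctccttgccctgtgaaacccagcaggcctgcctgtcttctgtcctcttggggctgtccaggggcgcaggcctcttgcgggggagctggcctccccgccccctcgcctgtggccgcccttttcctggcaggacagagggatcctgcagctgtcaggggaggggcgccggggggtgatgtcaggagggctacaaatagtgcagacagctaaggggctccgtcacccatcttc
The Acta2 window held CCCTATATGG at position -84 and CCTTGTTTGG at -34 from the start, each with 1 base off. The Myl9 window held an exact box, CCTAATAAGG, at -161 and CCTTGTAAGG with 1 base off at -99, and the Des window held none. The palindromic motif reads alike on both strands, so a match counts once. An exact box was in 1 of 34 windows of 31 members (2.94%), against 535 of 32851 windows of all genes (1.63%). With 1 base off allowed, 8 of 34 member windows held one (23.5%), against 9.98% of all windows, and those genes were Acta2, Col1a2, Col6a3, Lrat, Mmp14, Myl9, Tgfbr2 and Timp3. A match is a description of the letters, not a shown binding site.

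Wild type replicate 1 was at least 10 times the highest other library for 3 members, Acta2, Tagln and Myl9, against 13 of 12988 genes tested (0.1%). Genes of smooth muscle that are not members had the same feature. Of 20 such genes, 17 were highest in wild type replicate 1, 6 of them at least 10 times. These counts take in genes that did not pass the expression filter, so the 0.1% of tested genes is not their background. No share of all genes was counted for them. High smooth muscle genes in this library were known before the list was made. The summed level of the 20 genes was 729 to 803 CPM in Atp7b-/- livers and 1898, 810 and 953 CPM in the 3 wild type livers. The smooth muscle myosin heavy chain Myh11 had 71, 26 and 52 counts in Atp7b-/- livers, against 6965, 70 and 113 counts in wild type livers. Cnn1, encoding calponin, had 3, 2 and 1 counts in Atp7b-/- livers, against 1644, 1 and 9 counts in wild type livers. Actg2, the enteric smooth muscle actin, had 3, 0 and 4 counts in Atp7b-/- livers, against 1637, 2 and 2 counts in wild type livers. Acta2, Actg2 and Acta1 are near-identical actins, so the split of reads between them is uncertain. Of the smooth muscle genes, 12 passed the expression filter and 0 were called, with 3 at an unadjusted p under 0.05. The smallest adjusted p was that of Tpm2, a tropomyosin (log2 fold change -2.84, SE 0.61, adjusted p = 0.0823), followed by Mylk at -0.64 (adjusted p = 0.267) and Smtn at -0.96 (adjusted p = 0.277). 

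Skeletal and heart muscle genes were also nearly limited to wild type replicate 1. The 19 genes of that list summed to 1.57, 0.70 and 1.17 CPM in Atp7b-/- livers and to 121, 1.02 and 2.41 CPM in wild type livers. Acta1, the skeletal muscle actin, had 0, 0 and 1 counts in Atp7b-/- livers, against 627, 0 and 0 counts in wild type livers, and the muscle creatine kinase gene Ckm had 235 counts in wild type replicate 1 and 0 in each other library. None of the 19 passed the expression filter, which a gene high in 1 library alone cannot pass. The part that muscle transcripts have in the values of Acta2, Tagln, Des and Myl9 was not tested. Without wild type replicate 1, and with layout as a term, 15 of 43 members had positive log2 fold changes and the median was -0.12. The layout term takes up the remaining paired-end library, so genotype in that fit rests on the single-end libraries. With neither a covariate nor wild type replicate 1, 16 of 43 members were positive and the median was -0.26.

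**Figure D3:**
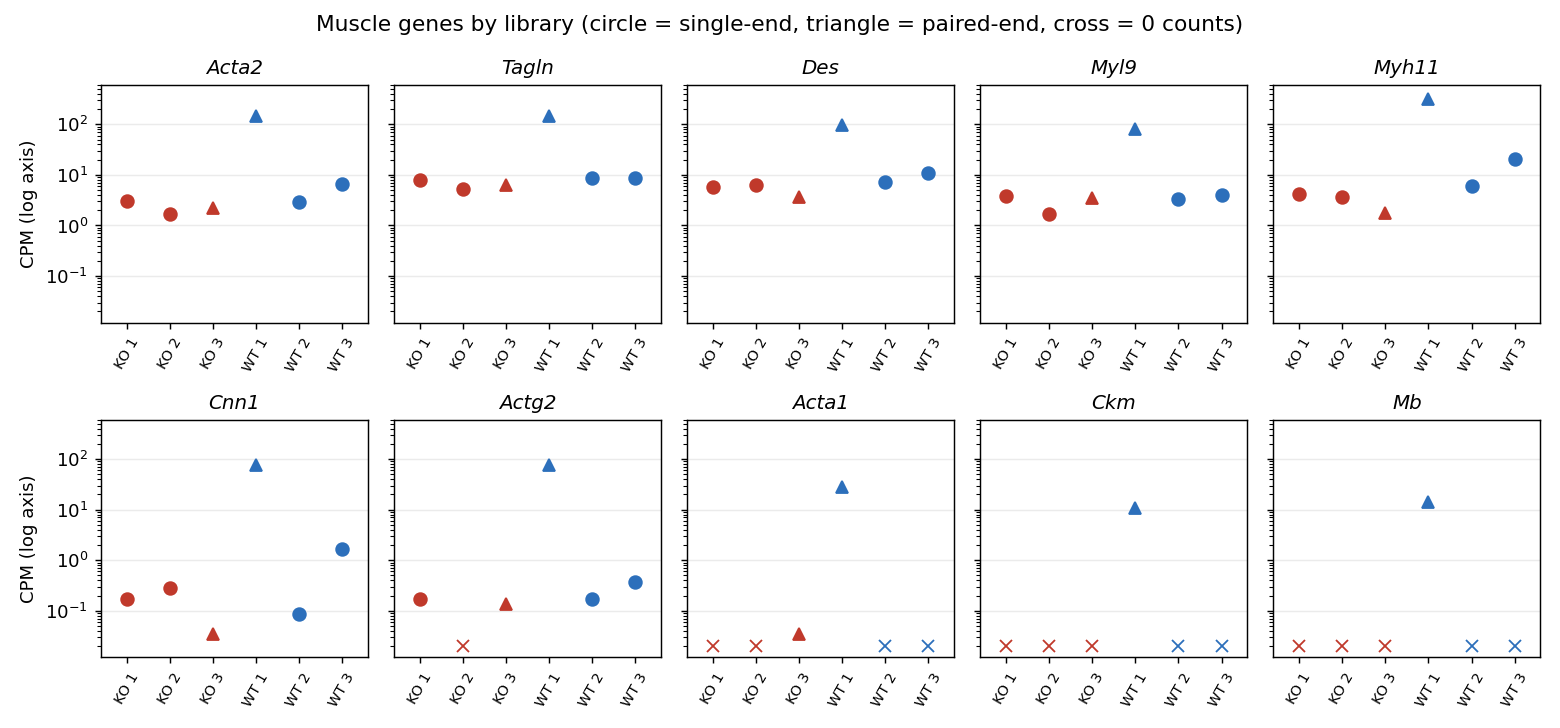
CPM of 4 members and 6 muscle genes that are not members, on a log axis, in each Atp7b-/- (KO) and wild type (WT) library, with triangles for paired-end libraries and crosses for 0 counts. Wild type replicate 1 is far above the other 5 libraries, at 146 CPM for Acta2.

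The 7 markers of stellate cells and pericytes were all detected in every library. They were Pdgfra and Pdgfrb (receptors of platelet-derived growth factor), Lrat (which esterifies vitamin A for storage), Reln (the secreted glycoprotein reelin), Rgs5 (a G protein regulator of pericytes), Colec11 (a collectin) and Hhip (a Hedgehog-binding protein). Their median log2 fold change was 0.01 and none was called. Their summed level was 262, 223 and 238 CPM in Atp7b-/- livers and 210, 264 and 195 CPM in wild type livers, so that the ranges overlapped. Colec11, the highest of them per length at a mean of 24.0 CPM per kb, was at 41.0, 44.6 and 28.4 CPM in Atp7b-/- livers and at 24.9, 52.4 and 41.7 CPM in wild type livers (-0.03, SE 0.19, adjusted p = 0.968). Lrat was at 15.3, 11.4 and 30.3 CPM in Atp7b-/- livers and at 19.9, 19.3 and 13.0 CPM in wild type livers (0.03, adjusted p = 0.978). Reln had the smallest p of the 7 (log2 fold change 0.26, SE 0.19, adjusted p = 0.604). Rgs5 was at 18.9 to 69.3 CPM in Atp7b-/- livers and 21.5 to 72.6 CPM in wild type livers, with the paired-end library highest in each. Pdgfrb was at 14.1 to 19.5 CPM in Atp7b-/- livers and 11.3 to 25.2 CPM in wild type livers, Pdgfra at 5.19 to 10.1 CPM in Atp7b-/- livers and 3.34 to 10.2 CPM in wild type livers, and Hhip at 2.67 to 3.85 CPM in Atp7b-/- livers and 2.38 to 4.82 CPM in wild type livers. In a further list of 28 stellate cell and fibroblast markers, 25 were tested and 0 were called, with 2 at an unadjusted p under 0.05 and a median of 0.06. Entpd2, an ectonucleotidase of portal fibroblasts, had the smallest adjusted p of these, 0.139 (log2 fold change 1.00, SE 0.29).

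The matrix proteoglycans and glycoproteins were Dcn, Lum and Bgn (small leucine-rich proteoglycans), Ecm1, Fn1 (fibronectin), Sparc (a collagen-binding matricellular protein) and Thbs1 (thrombospondin, which can activate latent TGF beta). Their median log2 fold change was -0.06 and none was called. Fn1, which hepatocytes secrete into plasma, was the most abundant member of all per length, at a mean of 284 CPM per kb. It was at 4833, 3229 and 1078 CPM in Atp7b-/- livers and at 1281, 5885 and 3623 CPM in wild type livers (-0.24, SE 0.27, adjusted p = 0.744). Again the paired-end library was the lowest of each genotype. Fn1 and Col18a1 dominate the set: all members took 0.309% to 0.824% of the counts in Atp7b-/- livers and 0.337% to 0.935% in wild type livers, and without those genes the shares were 0.128% to 0.169% in Atp7b-/- livers and 0.124% to 0.173% in wild type livers.

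Dcn, the proteoglycan decorin that coats collagen fibrils, was at 66.0, 65.5 and 192 CPM in Atp7b-/- livers and at 179, 59.9 and 41.9 CPM in wild type livers (0.28, SE 0.20, adjusted p = 0.593). Its high library in each genotype was the paired-end one, the reverse of Fn1. Thbs1 was at 0.991, 1.68 and 0.758 CPM in Atp7b-/- livers and at 4.20, 1.27 and 1.67 CPM in wild type livers (-1.08, SE 0.59, adjusted p = 0.461). Thbs1 was highest in wild type replicate 1. Its log2 fold change was -0.16 between the single-end libraries alone, and -0.39 with neither a covariate nor wild type replicate 1. The other members of this group overlapped between the genotypes. Ecm1 was at 80.7 to 285 CPM in Atp7b-/- livers and 55.3 to 350 CPM in wild type livers, and Sparc at 143 to 224 CPM in Atp7b-/- livers and 115 to 266 CPM in wild type livers. Bgn was at 73.0 to 150 CPM in Atp7b-/- livers and 78.1 to 146 CPM in wild type livers, and Lum at 2.95 to 13.6 CPM in Atp7b-/- livers and 3.71 to 23.5 CPM in wild type livers.

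Of the crosslinking enzymes, the lysyl oxidases that join collagen chains, Loxl1 had the highest level per length, at a mean of 1.33 CPM per kb. Loxl1 was at 5.13, 5.75 and 1.14 CPM in Atp7b-/- livers and at 2.33, 5.44 and 6.49 CPM in wild type livers (-0.42, SE 0.33, adjusted p = 0.625). For Loxl2 the value was 0.21 (SE 0.45, adjusted p = 0.882). Lox had 6, 2 and 39 counts in Atp7b-/- livers and 39, 4 and 0 counts in wild type livers, too few for a test, and 39 was the count of both paired-end libraries. In the fits whose filter it passed, Lox was not called either, with adjusted p-values of 0.918 or higher in edgeR.

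The proteases and inhibitors comprised Mmp2 and Mmp14, a gelatinase and the membrane-bound enzyme that activates it, and Timp1, Timp2 and Timp3. None was called, and the median of the 4 tested was -0.38. Timp3, the inhibitor that is bound to matrix, was at 12.5, 14.3 and 18.2 CPM in Atp7b-/- livers and at 18.5, 23.8 and 20.4 CPM in wild type livers. All 3 Atp7b-/- libraries lay below the wild type libraries, narrowly between the paired-end pair. Its log2 fold change was -0.48 (SE 0.23, adjusted p = 0.380). Timp3 shares 21.3% of its exon length with Syn3 on the opposite strand, and without a stated strand setting reads of these genes cannot be told apart. Timp2 was at 25.2, 24.6 and 20.8 CPM in Atp7b-/- livers, against 20.6, 30.6 and 43.9 CPM in wild type livers (-0.38, SE 0.22, adjusted p = 0.495), with overlapping ranges. Mmp14 was at 38.3, 38.9 and 9.64 CPM in Atp7b-/- livers and at 7.82, 88.6 and 36.3 CPM in wild type livers (-0.38, SE 0.36, adjusted p = 0.693), lowest in both paired-end libraries, and Mmp2 was at 3.00 to 6.59 CPM in Atp7b-/- livers and 4.08 to 5.21 CPM in wild type livers. Timp1, known to be induced by inflammation and scarring, had 1, 3 and 15 counts in Atp7b-/- livers and 3, 2 and 0 counts in wild type livers, and no fold is given at such counts.

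The TGF beta members were the ligands Tgfb1 and Tgfb2, the receptors Tgfbr1 and Tgfbr2 and the target gene Ctgf (connective tissue growth factor). All 5 had negative log2 fold changes over the 6 libraries, from -0.59 to -0.23, and none was called. Between the single-end libraries alone the value of Ctgf was positive (0.36) and that of Tgfbr1 was -0.08. With neither a covariate nor wild type replicate 1, Ctgf was at 0.05 and Tgfbr1 at 0.36. Tgfbr1 had the smallest p and the highest level per length, at a mean of 4.61 CPM per kb. It was at 15.6, 21.7 and 38.2 CPM in Atp7b-/- livers and at 65.8, 20.3 and 19.1 CPM in wild type livers (-0.33, SE 0.23, adjusted p = 0.563). The paired-end libraries were the highest of each genotype and the single-end libraries overlapped. Tgfb1 was at 16.0, 16.1 and 3.24 CPM in Atp7b-/- livers and at 2.56, 26.01 and 19.3 CPM in wild type livers (-0.24, SE 0.26, adjusted p = 0.730), with the paired-end libraries lowest. Tgfbr2 was at 19.4 to 45.7 CPM in Atp7b-/- livers and 19.1 to 69.6 CPM in wild type livers, and Tgfb2 at 0.641 to 0.999 CPM in Atp7b-/- livers and 0.595 to 1.14 CPM in wild type livers. Ctgf was at 5.89, 10.9 and 3.93 CPM in Atp7b-/- livers, against 19.8, 3.14 and 10.4 CPM in wild type livers (-0.59, SE 0.78, adjusted p = 0.802), with overlapping ranges. Ctgf shares 23.2% of its exon length with the predicted gene Gm15270.

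Among 24 further tested genes of TGF beta signalling, 0 rose and 1 fell, and 5 had an unadjusted p under 0.05. The gene that fell was Ltbp1, which tethers latent TGF beta to the matrix. It was at 4.02, 5.61 and 5.99 CPM in Atp7b-/- livers and at 13.3, 13.2 and 12.4 CPM in wild type livers (log2 fold change -1.33, SE 0.25, adjusted p = 0.0275 by edgeR). The groups were well apart and the layouts gave like values. The call was lost when any 1 of the 6 libraries was left out, with adjusted p-values of 0.0590 to 0.134. It was also lost without layout as a term, with labelled sex in place of layout and between the single-end libraries alone. The fits that lack a paired-end library also rest on the single-end libraries for genotype, so these losses are not separate. Under the settings that lost the call the log2 fold change of Ltbp1 was -1.43 to -1.16. The call was kept under RLE scaling (adjusted p = 0.0262), upper-quartile scaling (0.0345) and no filter (0.00107) in edgeR, and by DESeq2 (0.000107) and limma-voom (0.0230). Tgif1, a transcriptional repressor of TGF beta responses, was at 20.0, 13.2 and 35.5 CPM in Atp7b-/- livers and at 11.1, 9.26 and 11.1 CPM in wild type livers (1.06, SE 0.28, adjusted p = 0.103). Its ranges did not overlap, but it was not called.

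The other matrix lists held no call by edgeR. Of 18 collagen processing genes, 30 other matrix proteins and 11 other matrix proteases tested, 0 were called, with 0, 6 and 1 genes at an unadjusted p under 0.05 and medians of 0.04, -0.20 and 0.23. Perlecan (Hspg2), a basement membrane proteoglycan, was at 119, 128 and 20.9 CPM in Atp7b-/- livers and at 27.2, 232 and 227 CPM in wild type livers (-0.73, SE 0.19, adjusted p = 0.106). Its values were lower in Atp7b-/- libraries than in wild type libraries of the same layout. The fibril-associated collagen Col12a1 was at 3.79, 2.95 and 5.13 CPM in Atp7b-/- livers and at 3.20, 0.595 and 1.30 CPM in wild type livers (1.39, SE 0.45, adjusted p = 0.176).

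More members were called by layout than by genotype, and the same held over all genes. Between paired-end and single-end libraries, 21 of 43 members were called, beside 52.8% of all genes. Paired-end values were higher for 7 members, beside 27.2% of all genes, and lower for 14, beside 25.7%. The higher ones were Col5a2, Lrat, Rgs5, Dcn, Lum, Loxl2 and Tgfbr1, with log2 fold changes, paired-end over single-end, of 0.76 for Lrat to 2.10 for Lum. The lower ones were led by Tgfb1 at -2.70, Mmp14 at -2.47, Ecm1 at -1.95, Fn1 at -1.90 and Col1a1 at -1.84, and the others were Col5a1, Col4a2, Col6a2, Col18a1, Reln, Colec11, Bgn, Sparc and Loxl1. These differences followed base composition as a description: the Spearman correlation of the longest transcript's GC content with the layout's log2 fold change was -0.53 over 43 members and -0.75 over 12930 genes of the same 6 libraries. The correlation of GC content with the genotype's log2 fold change was -0.01 over the members and -0.23 over all genes.

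**Figure D4:**
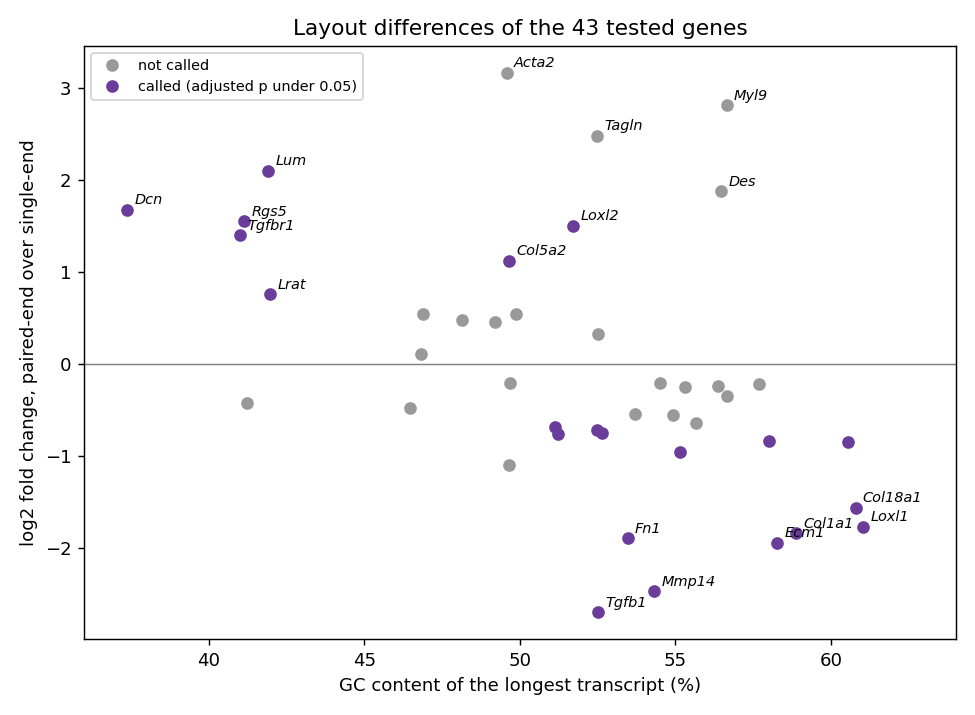
GC content of the longest transcript of each of the 43 tested members, in percent, against its log2 fold change of paired-end over single-end libraries, with called members in purple. GC-rich members lie lower in paired-end libraries (Spearman correlation -0.53), and the contractile genes Acta2, Tagln, Des and Myl9 lie above the trend without being called.

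Whether the genotype's change differed between the layouts was asked with an interaction term. Each genotype has 1 paired-end library, so the spread in this test comes from the single-end libraries alone, and labelled sex changes with it. None of the 43 members was called by edgeR, beside 2 of 12988 genes (0.0154%), and 9 members and 594 genes had an unadjusted p under 0.05. The contractile genes had the smallest values, with adjusted p of 0.160 for Tagln and Des, 0.253 for Acta2 and 0.268 for Myl9. Their within-layout log2 fold changes were -6.05 for Acta2, -4.57 for Tagln, -4.75 for Des and -4.53 for Myl9 in the paired-end pair. DESeq2 called these 4 genes, and limma-voom called none.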

How the data were processed

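For the 6 liver libraries the authors deposited unnormalized read counts, 1 column per library and 1 line per Ensembl gene. Per the submitters' processing notes, STAR 2.4, featureCounts and edgeR 3.8 were used with build GRCm38. Not given in the sources used here: annotation release, strand setting, treatment of multiply mapped reads, and whether a read pair counted once.

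Symbols came from GENCODE M21, which named 40254 of 41388 identifiers. With edgeR 4.0.16 in R 4.3.3, counts were scaled by TMM, filtered at a minimum count of 10 and fitted by robust quasi-likelihood with layout and genotype as terms. Values were adjusted over all genes that passed (Benjamini-Hochberg, called under 0.05). CPM are TMM-scaled, and CPM per kb divides by exon length. A standard error is the size of the log2 fold change over the square root of F. DESeq2 1.42.0 and limma 3.58.1 (voom) were alternatives, beside other scaling, no filter, other covariates, single-end libraries alone and each library left out. With layout as a term, a fit that lacks either paired-end library rests on the single-end libraries for genotype. The fit was tested on simulated counts in which 200 of the better counted genes were changed. The genotype test recovered 98% of 4-fold and 31% of 2-fold changes, and the layout test 93% and 31%. The interaction test recovered 12% of 4-fold and 0% of 2-fold changes. The simulated spread was that of genes of like level, and the genotype simulation held no layout difference and no library that stood apart. Recovery was thus not measured for genes of few counts or wide spread, such as Acta2 (SE 1.58). A gene that was not called can still have changed by 2-fold, and by 4-fold where counts are few or the spread is wide. For the interaction it can have changed by 4-fold.

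The members, the lists of other genes and the tests were chosen with earlier results of these data known. Values in every library are given for the 12 members of smallest genotype p, those whose ranges did not overlap, Acta2, Tagln, Des, Myl9 and the member highest per kb in each role, and for some others. In other lists, up to 4 genes of smallest p could be named, and not all of them are. Depth limits the precision of low genes. Replicate numbers follow deposition order and pair no samples.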

Additional observations from a re-analysis of the deposited data

How the results depend on the processing

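The count of 0 called members held under RLE and upper-quartile scaling, DESeq2, limma-voom, no covariate, labelled sex in place of layout, single-end libraries alone and each library left out. Without the filter on low counts 1 of 45 members was called, Col15a1, with a log2 fold change of 0.82 and an adjusted p of 0.0329, and its log2 fold change was positive under every alternative. Over all genes, 323 calls became 1116 of 25130 genes without the filter, 770 with DESeq2 and 126 of 12205 genes between single-end libraries alone, where 4 libraries enter. They became 0 without a covariate and 0 with labelled sex, where edgeR gave 545 and 381 genes at an unadjusted p under 0.05; the cause was not tested. Leaving out 1 library gave 119 to 323 calls, the fewest without Atp7b-/- replicate 3 (119) and wild type replicate 1 (131), and 208 without Atp7b-/- replicate 1. The fits with 119 and 131 calls rest on the single-end libraries for genotype, which gave 126 by themselves. An alternative chosen after seeing the muscle transcripts, without a covariate and without wild type replicate 1, gave 0 calls, with 1323 genes at an unadjusted p under 0.05. The interaction called 6 members without the filter (Acta2, Tagln, Des, Myl9, Col3a1 and Ctgf) and 4 with DESeq2, against 0.633% and 0.638% of all genes. The layout called 14 to 23 members when 1 library was left out, and the share of all genes in those fits was not counted. No paired analysis was possible because the replicate numbers are in deposition order. Depth limited the test: Lox and Timp1 had too few counts for the filter over 6 libraries.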

Other observations

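Markers of other cells gave few calls. Of the tested markers, 0 of 17 endothelial, 0 of 14 Kupffer cell and macrophage, 0 of 7 cholangiocyte, 0 of 6 mesothelial, 0 of 3 lymphocyte, 0 of 3 adipocyte, 0 of 9 hepatocyte and 0 of 5 red blood cell genes were called by edgeR. At an unadjusted p under 0.05 there were 4, 0, 2, 0, 1, 0, 1 and 1 of them. Median log2 fold changes, Atp7b-/- over wild type, were -0.33 for endothelial, -0.04 for Kupffer cell and macrophage, 0.36 for cholangiocyte, -0.31 for mesothelial, 0.15 for lymphocyte, -0.54 for adipocyte, -0.26 for hepatocyte and 0.47 for red blood cell genes. The biliary transcription factor Sox9 was at 12.8, 8.84 and 6.51 CPM in Atp7b-/- livers and at 1.28, 5.44 and 6.30 CPM in wild type livers (log2 fold change 1.37, SE 0.36, adjusted p = 0.104). Of 3 tested pancreatic acinar genes 1 rose, the trypsin inhibitor Spink1, with 16, 8 and 41 counts in Atp7b-/- livers against 1, 0 and 0 counts in wild type livers (adjusted p = 0.0137 in edgeR). Spink1 passed the expression filter through the Atp7b-/- libraries alone, so its test could hardly have given anything but a rise. The Spink1 call was lost without wild type replicate 1 (adjusted p = 0.158), without Atp7b-/- replicate 3 (0.192), without a covariate (0.117) and with labelled sex in place of layout (0.438). Both fits that lack a paired-end library rest on the single-end libraries for genotype, so their losses are not separate. The Spink1 call was kept when any of the other 4 libraries was left out (0.0360 to 0.0462), under other scaling, without the filter, and by DESeq2 and limma-voom.

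Adipocyte genes summed to 7.35, 8.14 and 49.3 CPM in Atp7b-/- livers and to 75.5, 5.95 and 6.67 CPM in wild type livers, so that both paired-end libraries were high. Among the 4 single-end libraries, Atp7b-/- replicate 2 was the highest for 14 of 43 members (32.6%), against 20.4% of all genes, and wild type replicate 2 for 16 (37.2%), against 21.7% of all genes. Atp7b-/- replicate 1 was the highest for 6 members (14.0%), against 27.6% of all genes, and wild type replicate 3 for 7 (16.3%), against 30.3% of all genes.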
